A study of Mus musculus with 64 samples.

Results

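Voltage-gated sodium channels open when a neuron is depolarised and carry the inward current of the action potential. Each channel is built around 1 large alpha subunit that forms the pore, joined by small beta subunits, single-pass membrane proteins that change gating, help bring the channel to the surface and act as adhesion molecules. The 7 genes described here were chosen by symbol, as the rows whose Ensembl ID maps to them in the GENCODE annotation of GRCm38, and all 7 were found among the 18432 genes of the table. They were the 4 alpha subunit genes *Scn1a*, *Scn2a*, *Scn3a* and *Scn8a*, which are the main pore-forming subunits of the brain, and the 3 beta subunit genes *Scn2b*, *Scn3b* and *Scn4b*.

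RNA was sequenced from bulk frontal cortex and hippocampus of *Cyfip2*+/R87C knock-in mice (KI), in which 1 copy of *Cyfip2* encodes Cys in place of Arg at residue 87, and of their wild-type littermates (WT). All mice had the C57BL/6N background and none was treated, and the ages were 1, 7, 14 and 28 postnatal weeks (PWK). Each of the 16 groups of genotype, region and age held 4 libraries, 1 per mouse within the group, and the regions were dissected from both hemispheres. Whether the cortex and hippocampus of one replicate number came from the same mouse is not stated. The allele is a knock-in that needs no Cre or transgene promoter, so it is not limited to a cell type or an age, and a wild-type copy stays beside the R87C copy. KI was compared with WT to follow the young, then adult, brain of this mouse model of an infantile epilepsy.

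In the mature brain the alpha subunits differ in where they act. *Scn1a* encodes the channel on which fast-spiking inhibitory neurons depend most and whose loss causes Dravet syndrome. *Scn2a* and *Scn8a* encode the channels of the axon initial segment of excitatory neurons, the first of them earlier in life and the second also at nodes of Ranvier in adults, while *Scn3a* is known as the embryonic and neonatal subunit. Of the beta subunits, those of *Scn2b* and *Scn4b* are joined to the alpha subunit by a disulfide bond and that of *Scn3b* is not; the tail of the *Scn4b* protein is known for resurgent current, and *Scn4b* is strongly expressed by striatal neurons.

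The alpha subunit genes *Scn1a*, *Scn2a* and *Scn3a* lie in a cluster on chromosome 2 (GRCm38). *Scn3a* (ENSMUSG00000057182) is at chr2:65457118-65567627 on the minus strand, *Scn2a* (ENSMUSG00000075318) at chr2:65620771-65767447 on the plus strand and *Scn1a* (ENSMUSG00000064329) at chr2:66270778-66440840 on the minus strand. *Scn8a* (ENSMUSG00000023033) is at chr15:100869858-101045938 on the plus strand. The beta subunit genes lie on the plus strand of chromosome 9, with *Scn3b* (ENSMUSG00000049281) at chr9:40269217-40291618, *Scn2b* (ENSMUSG00000070304) at chr9:45117782-45130070 and its neighbour *Scn4b* (ENSMUSG00000046480) at chr9:45138395-45154152. Genes on the opposite strand overlap *Scn1a* (*Gm13630*), *Scn3a* (*Gm13595*), *Scn2b* (*Gm10684*) and *Scn3b* (*Gm47266*), and only *Gm13630* is in the table; whether the authors' quantification used strand is not given in the sources used here.

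How alike the members are in sequence bears on how their reads can be told apart. In the coding sequences of the annotated transcripts, *Scn1a*, *Scn2a* and *Scn3a* were 81.4% to 83.4% identical to each other, and *Scn8a* was 73.3% to 73.8% identical to them, whereas the 3 beta subunit genes were only 47.0% to 51.7% identical.

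Stretches shared base for base between genes were a small share of each transcript. Of all windows of 100 bases, 1.22% in *Scn1a*, 1.53% in *Scn2a* and 2.95% in *Scn3a* also occurred in a transcript of another gene, and none did in *Scn8a* or the 3 beta subunit genes. Of windows of 31 bases the share was 9.78% in *Scn1a*, 12.5% in *Scn2a*, 12.4% in *Scn3a*, 2.40% in *Scn2b*, 0.666% in *Scn8a*, 0.364% in *Scn3b* and 0 in *Scn4b*. At 100 bases *Scn3a* shared most with *Scn9a*, another alpha subunit gene, in 185 windows. The values of these genes are therefore uncertain to the extent that the quantification had to divide such reads among them.

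*Scn2b* and *Scn4b* are neighbours in the same orientation and, as described below, both rose steeply after the first week. Their promoters, from 250 bases before to 50 after the start in RefSeq (GRCm38.p6), are at chr9:45117626-45117925 for *Scn2b* and chr9:45138374-45138673 for *Scn4b*, both on the plus strand. Both RefSeq starts lie inside the genes as placed by GENCODE, so part of each window, and most of that of *Scn4b*, falls within the annotated gene. The promoters are printed because the data place both genes among the strongest postnatal risers of the family; capitals mark a motif match.
Scn2b: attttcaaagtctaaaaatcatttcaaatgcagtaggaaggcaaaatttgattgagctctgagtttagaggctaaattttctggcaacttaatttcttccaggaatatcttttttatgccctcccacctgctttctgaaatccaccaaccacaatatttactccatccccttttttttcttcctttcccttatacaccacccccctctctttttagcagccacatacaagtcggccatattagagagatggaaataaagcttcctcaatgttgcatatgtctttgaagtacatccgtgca
Scn4b: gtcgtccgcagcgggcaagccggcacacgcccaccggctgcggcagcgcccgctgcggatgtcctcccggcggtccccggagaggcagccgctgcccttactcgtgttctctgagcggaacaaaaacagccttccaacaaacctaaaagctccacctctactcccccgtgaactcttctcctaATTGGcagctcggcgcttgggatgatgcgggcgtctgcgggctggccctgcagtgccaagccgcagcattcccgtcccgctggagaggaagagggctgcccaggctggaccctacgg

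The promoters differed in composition. That of *Scn2b* had a GC content of 38.3% with 2 CpG and that of *Scn4b* 66.3% with 26 CpG, beside medians of 52.7% and 7 CpG over the 32851 promoters of the table. Both strands were searched for the TATA box (TATAAA, in 13.6% of all these promoters), the cAMP response element (TGACGTCA, 1.79%) and its core (TGACG, 20.8%), the E-box (CACGTG, 7.15%), the GC box (GGGCGG, 35.7%), the AP-1 motif (TGANTCA, 7.81%) and the CCAAT box (CCAAT, 37.4%); the core lies within the full element. The only match was a CCAAT box on the opposite strand of the *Scn4b* promoter, 67 bases before the RefSeq start. RefSeq entries were also found for *Scn1a*, *Scn2a* and *Scn8a*, and none was matched for *Scn3a* and *Scn3b*.

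The deposited values are estimated counts divided by the authors' size factors, here called normalized counts, and a library's values summed to between 29.2 and 32.6 M. No library was a copy of another. Summed cortical tissue markers were 11320 to 20981 in the cortical libraries and 2751 to 6949 in the hippocampal ones, and summed hippocampal markers were 20773 to 31917 in hippocampus and 3764 to 8912 in cortex, so that the labelled regions did not overlap in either list. Markers of striatal neurons (*Drd1*, *Drd2*, *Adora2a*, *Rgs9*, *Ppp1r1b*), which border the frontal cortex and express *Scn4b*, stood apart in 2 cortical libraries, with a sum of 7794 in WT cortex PWK 1 replicate 1 beside 1742 to 2135 in the other 3 libraries of its group, and of 14198 in KI cortex PWK 14 replicate 2 beside 4653 to 9767. Choroid plexus and ependymal markers ran from 481 to 122124 in hippocampus and reached 21245 in 1 cortical library. *Cyfip2* itself differed between the genotypes only in cortex at PWK 28 (log2 fold change -0.44, adjusted p = 0.00580), and gene counts do not show the changed codon. All genotype and age tests below used limma-trend on log2(normalized count + 1) over all genes, with a gene called if its p after Benjamini-Hochberg adjustment was under 0.05; fold changes are on that scale, and intervals are 95% intervals from the same fit.

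In WT cortex the 7 genes changed in 2 directions between PWK 1 and PWK 7: *Scn1a*, *Scn8a*, *Scn2b* and *Scn4b* rose, and *Scn2a*, *Scn3a* and *Scn3b* fell. All 7 were thus called, where 65.3% of all genes tested were, and 3 of the 7 were called lower at PWK 7, beside 32.7% of all genes. In WT hippocampus 6 of 7 were called (61.3% of all genes), only *Scn3a* of them lower (30.4% of all genes), and the direction of *Scn3b* was the opposite of that in cortex. These are bulk values, in which fewer cells of a type and less RNA per cell cannot be told apart.

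*Scn1a* was 2518, 3109, 2847 and 2730 normalized counts in the WT cortex at PWK 1 and 5432, 5284, 5725 and 5925 at PWK 7, 2.00 times the level of week 1 (log2 fold change 1.00, adjusted p = 5.17e-08). In hippocampus it went from 2060, 1988, 1998 and 2098 to 3397, 3443, 3898 and 3738 (0.83, adjusted p = 8.84e-08). The ages did not overlap in either region. *Scn8a*, the adult channel of the initial segment and node, rose less: from 9945, 9688, 10878 and 10188 to 14723, 13901, 14657 and 15278 in cortex (0.53, adjusted p = 9.98e-07) and from 10001, 10258, 10530 and 10348 to 14742, 15777, 14009 and 14008 in hippocampus (0.51, adjusted p = 1.44e-06). The ranges of the 2 regions overlapped for *Scn8a* at both ages.

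*Scn3a*, the early subunit, fell by 1.25 on the log2 scale in cortex (adjusted p = 1.38e-09), from 3951, 4150, 4038 and 4024 to 1694, 1608, 1866 and 1647. In hippocampus it fell by 0.63 (adjusted p = 1.50e-06), from 3116, 3763, 3445 and 3574 to 2239, 2252, 2244 and 2233. The gene did not go to 0: its lowest WT library at any later age held 1529, and in cortex no change was called between PWK 7 and PWK 28. *Scn2a* fell slightly in cortex, from 15702, 17005, 17785 and 17981 to 15299, 14069, 14464 and 14509 (fell by 0.23, adjusted p = 0.00152), a call lost with correction for GC content and length (-0.096, adjusted p = 0.157). Its change in hippocampus was not called (-0.10, adjusted p = 0.121). The ratio of *Scn8a* to *Scn2a* counts, not corrected for transcript length, went from 0.595 at PWK 1 to 1.00, 1.10 and 1.01 at PWK 7, 14 and 28 in WT cortex, and from 0.800 to 1.23, 1.37 and 1.27 in WT hippocampus. That of *Scn1a* to *Scn3a* went from 0.693 to 3.29, 3.11 and 2.84 in cortex and from 0.589 to 1.61, 1.84 and 1.90 in hippocampus. In both pairs the shift from the early to the late subunit lay between the first 2 ages.

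Among the beta subunits the steepest change was that of *Scn4b*. In WT cortex it was 935, 64, 126 and 99 at PWK 1 and 3111, 2385, 3612 and 4298 at PWK 7, a log2 fold change of 4.30 (95% interval 2.92 to 5.68, adjusted p = 7.65e-05). The library at 935 is the one with high striatal markers; without it the fold change was 5.13 (adjusted p = 3.97e-09). In hippocampus *Scn4b* went from 67, 32, 74 and 61 to 607, 521, 757 and 869, or 11.8 times (3.58, adjusted p = 2.35e-07). *Scn2b* rose from 2731, 2223, 2680 and 2186 to 8089, 7556, 8253 and 8448 in cortex, 3.29 times (1.73, adjusted p = 2.28e-09), and from 2605, 2006, 2546 and 2239 to 6943, 7074, 7217 and 7100 in hippocampus, 3.02 times (1.60, adjusted p = 9.22e-09). The 2 disulfide-linked beta subunits thus rose in both regions.

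*Scn3b*, the beta subunit without that bond, fell in cortex only. Its cortical values were 7534, 8373, 7301 and 7875 at PWK 1 and 3476, 3666, 3247 and 2972 at PWK 7, 0.430 of the earlier level (fell by 1.22, adjusted p = 1.39e-08). Its hippocampal values were 8657, 9040, 8803 and 9538 at PWK 1 and 10216, 10728, 9093 and 9643 at PWK 7 (0.14, adjusted p = 0.0427), a small rise that kept its call when 2 of the 8 libraries were left out in turn and lost it for the other 6, at 0.10 to 0.18. It also lost the call with total-sum scaling (0.080, adjusted p = 0.172) and in a fit of all 64 libraries (adjusted p = 0.247). The ages overlapped in hippocampus and lay far apart in cortex. Whether these changes differed between the regions was not tested as an interaction, but the regions were compared at each age (below).

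From PWK 7 to PWK 28 the changes in WT were small. In cortex 3 of 7 members were called, all lower (22.2% of all genes called, 11.4% lower): *Scn1a* by -0.15, *Scn2a* by -0.15 and *Scn8a* by -0.14, with adjusted p of 0.0439, 0.0239 and 0.0249. In hippocampus 3 were called, also lower (14.7% of all genes, 8.38% lower): *Scn2a* by -0.23, *Scn3a* by -0.17 and *Scn8a* by -0.18, with adjusted p of 0.0294, 0.0251 and 0.0423. With single libraries left out the folds stayed close to these, between -0.18 and -0.12 for the 3 genes in cortex and between -0.26 and -0.14 in hippocampus, while 0 to 4 members were called in cortex and 0 to 3 in hippocampus. The cortical calls depend on the scaling: with total-sum scaling *Scn1a*, *Scn2a* and *Scn8a* were not called (-0.12, -0.12 and -0.11, adjusted p = 0.0898, 0.0633 and 0.0619) and *Scn3b* was, as higher at PWK 28 (0.23, adjusted p = 0.0313, beside 0.20 and 0.0532 as reported).

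**Figure D1:**
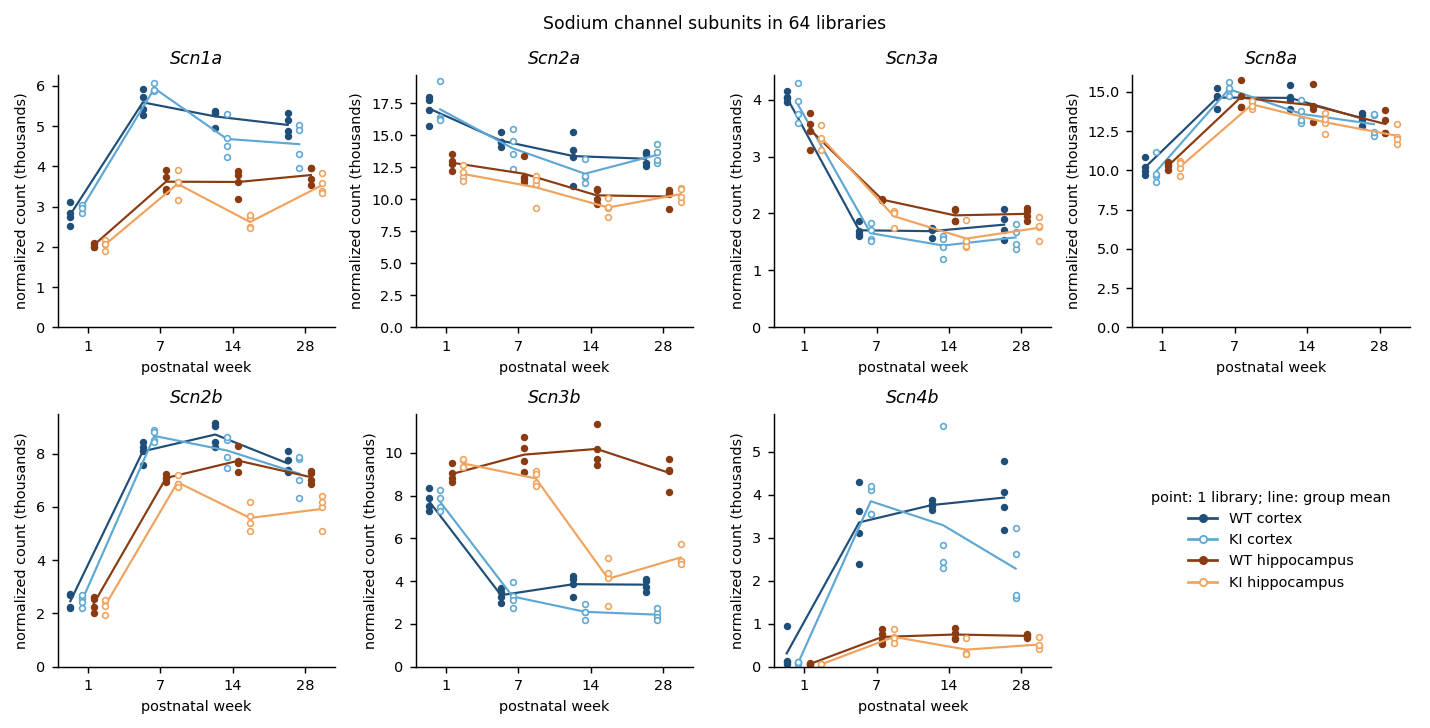
Normalized counts (in units of 1000, vertical axis from 0) of the 7 sodium channel subunit genes at 4 postnatal weeks (horizontal axis, equally spaced). Each point is 1 library, filled for WT and open for KI, blue for cortex and brown or orange for hippocampus, and lines join group means. Scn1a, Scn8a, Scn2b and Scn4b were higher at PWK 7 than at PWK 1 in both regions, Scn3b parted between the regions at PWK 7, and its KI values were below all WT values of the same region at PWK 14 and 28.

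Hippocampus and cortex differed in most members. In WT mice 4 of 7 members were called between the regions at PWK 1 (34.7% of all genes called), 6 at PWK 7 (40.8%), 6 at PWK 14 (34.6%) and 4 at PWK 28 (37.8%). *Scn1a* was lower in hippocampus at every age, by -0.46, -0.63, -0.54 and -0.41 on the log2 scale from PWK 1 to 28 (adjusted p at most 0.00013), and *Scn2a* by -0.41, -0.28, -0.37 and -0.37 (adjusted p at most 0.00542). *Scn8a* did not pass the test at any age, with differences between -0.05 and 0.02; scaling to equal totals made that at PWK 1 0.11 (adjusted p = 0.0352).

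The largest regional differences were those of beta subunits, in opposite directions. *Scn4b* in WT hippocampus was 0.205, 0.198 and 0.181 of its cortical level at PWK 7, 14 and 28 (log2 differences -2.28, -2.35 and -2.45, adjusted p = 1.71e-06, 6.15e-09 and 9.31e-09). *Scn3b* was 2.97, 2.64 and 2.37 times its cortical level (1.57, 1.40 and 1.24, adjusted p = 1.53e-08, 1.11e-07 and 3e-08), while at PWK 1 the difference was 0.21 (adjusted p = 0.00626). That call at PWK 1 was lost with correction for GC content and length (0.15, adjusted p = 0.0564) and in the fit of all 64 libraries (adjusted p = 0.103). At PWK 28, WT cortex held 3505, 3720, 4011 and 4090 counts of *Scn3b* and WT hippocampus 9220, 9706, 8189 and 9156. *Scn3a* changed sides, from -0.22 at PWK 1 (adjusted p = 0.00849) to 0.40 at PWK 7 (adjusted p = 5.94e-05), the first of these not called with total-sum scaling (-0.12, adjusted p = 0.0984). *Scn2b* differed little, by -0.19 at PWK 7 and -0.17 at PWK 14 where it was called (adjusted p = 0.00253 and 0.025), the latter not with total-sum scaling (adjusted p = 0.0628) or in the fit of all 64 libraries (adjusted p = 0.0732).

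To compare levels between genes, counts were divided by the length of each gene's longest coding transcript. Per kilobase, WT cortex at PWK 1 was led by *Scn2a* at 1916 ± 116 and *Scn3b* at 1873 ± 112 (SD, n = 4), which overlapped; *Scn8a* followed at 890 ± 45, then *Scn2b*, *Scn3a*, *Scn1a* and last *Scn4b* at 61 ± 84. By PWK 28 the order in cortex was *Scn2b* 1639 ± 77, *Scn2a* 1474 ± 61, *Scn8a* 1163 ± 31, *Scn3b* 923 ± 65, *Scn4b* 789 ± 135, *Scn1a* 600 ± 31 and *Scn3a* 189 ± 25, of which only *Scn3b* and *Scn4b* overlapped. In hippocampus at PWK 28 *Scn3b* came first at 2185 ± 153, before *Scn2b* at 1528 ± 47, *Scn2a* at 1143 ± 75 and *Scn8a* at 1132 ± 63, the last pair overlapping, and *Scn4b* was last at 143 ± 10. The order depends on the length used, as the place of *Scn8a* shows. By the median length of the annotated coding transcripts, which is 2.11 kb for *Scn8a* because many of its 15 are short, its cortical level at PWK 28 was 3.60 times that of *Scn2a*, beside 0.790 by the longest transcript and 0.817 by the union of exons. The deposited values do not say which isoforms the reads came from.

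**Figure D2:**
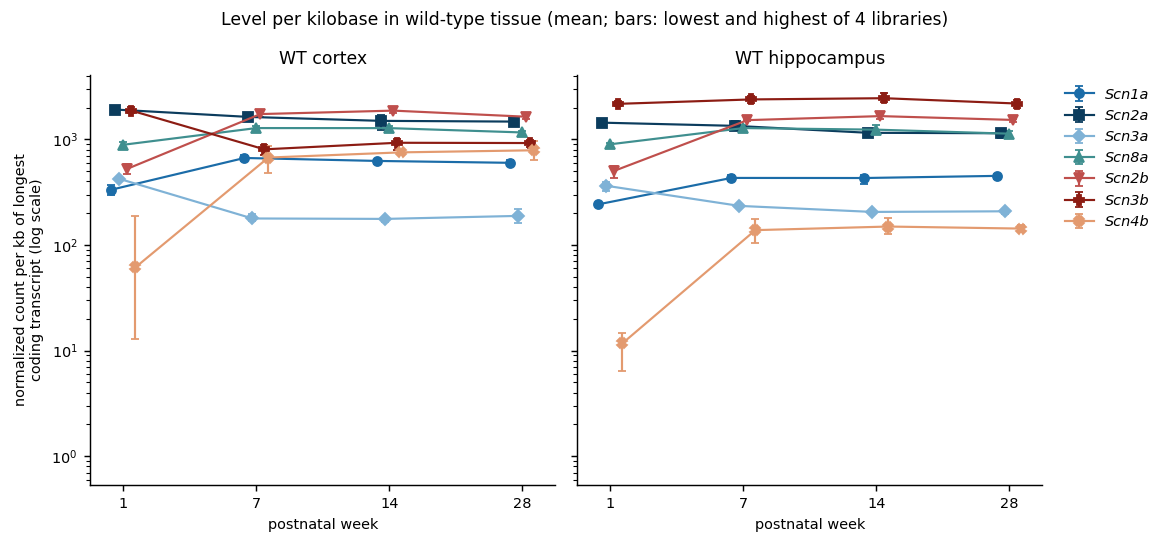
Normalized count per kilobase of the longest coding transcript (log scale) against postnatal week for each gene in WT cortex and WT hippocampus; markers are means and bars run from the lowest to the highest of 4 libraries. By this length Scn3b led in hippocampus at every age, Scn2b led in cortex from PWK 7 (overlapping Scn2a at that age), and Scn4b rose from the lowest place at PWK 1 more steeply than any other member.

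None of the 7 genes was called between KI and WT at PWK 1 or PWK 7. In cortex 0 of 7 were called at PWK 1 (0.00546% of all genes called) and at PWK 7 (0.00545%), and in hippocampus 0 at PWK 1 (0.0109%) and at PWK 7 (0.0218%), with adjusted p between 0.565 and 0.996 throughout. At an unadjusted limma p under 0.05 were only *Scn2b* in cortex at PWK 7, *Scn2a* in hippocampus at PWK 1, and *Scn3a* and *Scn3b* in hippocampus at PWK 7. The intervals were narrow for most members: for *Scn8a* at PWK 7 the log2 difference lay between -0.03 and 0.14 in cortex and between -0.14 and 0.06 in hippocampus. *Scn3a* in hippocampus at PWK 7 was 2048, 1741, 2014 and 2001 in KI, below all 4 WT libraries, but with a difference of -0.20 was not called (adjusted p = 0.618; the groups did not overlap in 3.87% of all genes).

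At PWK 14 and PWK 28 some members were called in each region, always with lower values in KI. In cortex 1 of 7 was called at PWK 14, where 5.18% of all genes were called and 2.7% lower in KI, and 2 at PWK 28 (22.2%, and 10% lower). In hippocampus 5 were called at PWK 14 (15.6%, and 7.95% lower) and 3 at PWK 28 (15.8%, and 6.91% lower). The genotypes did not overlap at PWK 14 in 1 member in cortex (14.2% of all genes) and 3 in hippocampus (23.8%), and at PWK 28 in 1 in cortex (25.8%) and 2 in hippocampus (21.5%). Over the 7 genes the median log2 difference in cortex was -0.17 at PWK 14 and -0.15 at PWK 28, that in hippocampus -0.46 and -0.19, and the medians of all genes lay within 0.00602 of 0. The 3 calls in cortex over both ages were *Scn3b* at each age and *Scn4b* at PWK 28. Of the 8 in hippocampus, 6 were the beta subunit genes *Scn2b*, *Scn3b* and *Scn4b*, each counted once per age.

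*Scn3b* was called in both regions at both ages. In cortex at PWK 14 it was 2545, 2572, 2940 and 2184 in KI and 4222, 4079, 3859 and 3260 in WT (means 2560 ± 309 and 3855 ± 424, SD, n = 4), a log2 difference of -0.59 (SE 0.0993, 95% interval -0.81 to -0.37, adjusted p = 0.00905). At PWK 28 it was 2488, 2304, 2171 and 2746 against 3505, 3720, 4011 and 4090, or 0.633 of WT (-0.66, SE 0.0808, 95% interval -0.84 to -0.48, adjusted p = 0.000574). At both ages the highest KI library was under the lowest WT library. In hippocampus at PWK 14 the KI values were 2838, 5073, 4132 and 4394 and the WT values 10198, 9728, 9450 and 11369, so that KI held 0.403 of the WT mean (-1.34, SE 0.155, 95% interval -1.68 to -0.99, adjusted p = 0.00127). At PWK 28 they were 4930, 4930, 5746 and 4816 against 9220, 9706, 8189 and 9156, or 0.563 of WT (-0.83, SE 0.0666, adjusted p = 3.33e-05). The hippocampal KI values at PWK 14 thus overlapped those of WT cortex, after levels of 8450 to 9151 in KI hippocampus at PWK 7. All 4 calls held when any single library was left out.

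*Scn2b*, which brings channels to the surface, was lower in KI in hippocampus. Its values at PWK 14 were 5405, 6189, 5095 and 5643 in KI and 7638, 7709, 7318 and 8270 in WT, 0.722 of WT (-0.47, SE 0.0704, 95% interval -0.63 to -0.31, adjusted p = 0.00323). At PWK 28 they were 5107, 6422, 6002 and 6169 against 7260, 7333, 6875 and 6993, 0.833 of WT (-0.27, SE 0.0652, adjusted p = 0.0178), and the genotypes did not overlap at either age. The call at PWK 14 held for all 8 libraries left out in turn and that at PWK 28 for 6 of 8. In cortex *Scn2b* overlapped between the genotypes and was not called, with -0.10 at PWK 14 (adjusted p = 0.386) and -0.08 at PWK 28 (adjusted p = 0.480). Since *Scn3b* fell further than *Scn2b*, the ratio of *Scn2b* to *Scn3b* counts was 1.41 ± 0.331 in KI hippocampus at PWK 14, against 0.761 ± 0.029 in WT (SD, n = 4).

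*Scn4b* was called, lower in KI, in 3 of the 4 adult comparisons. In cortex at PWK 28 it was 1599, 3228, 1667 and 2613 in KI and 4047, 4780, 3176 and 3711 in WT, 0.580 of WT (-0.84, SE 0.213, 95% interval -1.31 to -0.37, adjusted p = 0.0188), and the genotypes overlapped in 1 library. In hippocampus it was 288, 320, 301 and 664 against 631, 668, 896 and 783 at PWK 14, 0.528 of WT (95% interval of the log2 difference -1.56 to -0.44, SE 0.250, adjusted p = 0.0269), and 446, 404, 687 and 512 against 662, 765, 679 and 743 at PWK 28 (-0.50, SE 0.139, adjusted p = 0.0318). At PWK 14 the fourth KI library stood above the other 3; without it the difference was -1.28 (adjusted p = 0.000917). In cortex at PWK 14 the KI values were 2426, 5598, 2302 and 2816 and the WT values 3645, 3774, 3722 and 3876. No call was made there (-0.29, 95% interval -0.79 to 0.20, adjusted p = 0.515), but without KI replicate 2 the difference was -0.58 and was called (SE 0.0743, adjusted p = 0.00626). That library is the one with the highest striatal marker sum. Only 1 of the 8 fits with a library left out gave a call there, that without KI replicate 2. The 8 differences ran from -0.58 to -0.16 (limma adjusted p up to 0.762), and 0 of 7 other settings gave a call. When libraries were left out in turn, the calls held for 5 of 8 in cortex at PWK 28, 2 of 8 in hippocampus at PWK 14 and 1 of 8 in hippocampus at PWK 28, and the differences stayed between -1.02 and -0.69, -1.28 and -0.88, and -0.65 and -0.40. In the fit of all 64 libraries the calls at PWK 28 were lost, with the same differences (adjusted p = 0.0755 in cortex and 0.384 in hippocampus).

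The striatal markers were also compared between the genotypes. In cortex the summed striatal markers were 4653 to 14198 in KI and 2812 to 3754 in WT at PWK 14, and 8477 to 10110 against 3514 to 6897 at PWK 28. At each age 1 of 5 markers was called, higher (2.48% and 12.2% of all genes called higher). In hippocampus the sums were 1880 to 4920 against 1565 to 2665 at PWK 14 and 3168 to 4329 against 1894 to 2600 at PWK 28. At each age 2 of 5 were called, higher (7.64% and 8.92% of all genes). None of the 5 markers was at 0 in a group. The part of striatal tissue in the *Scn4b* differences was not tested.

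**Figure D3:**
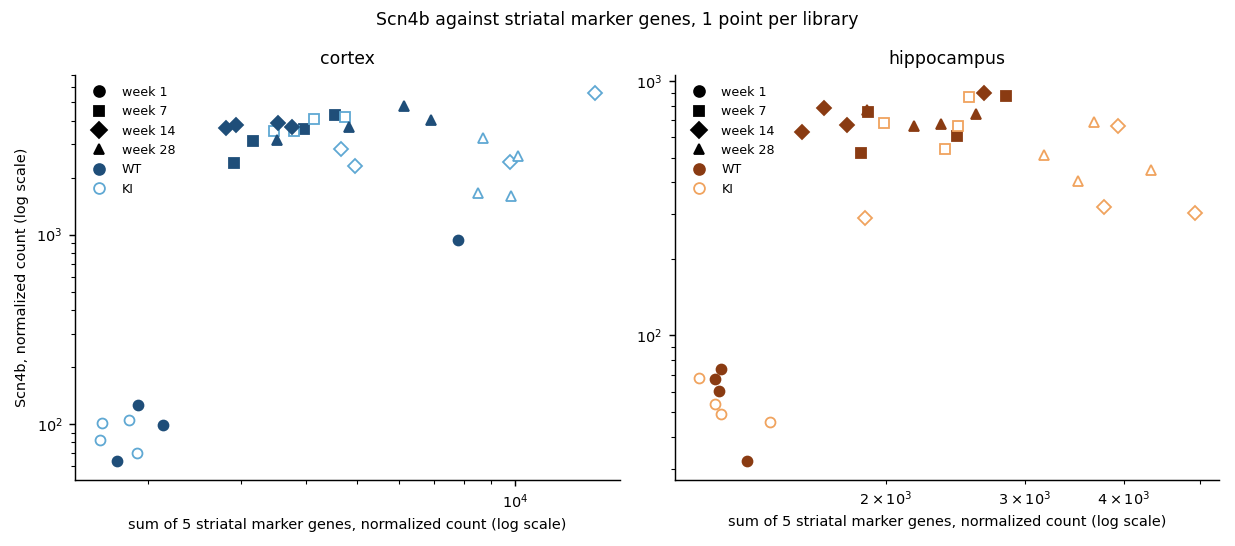
Scn4b normalized count against the sum of 5 striatal marker genes in each library of cortex (left) and hippocampus (right), both axes on a log scale; shapes give the postnatal week, filled points WT and open points KI. WT cortex PWK 1 replicate 1 (935) and KI cortex PWK 14 replicate 2 (5598) lie to the right of their groups, and most KI libraries at PWK 14 and 28 lie to the right of and below the WT libraries of that age.

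Of the alpha subunits, *Scn1a* was called in hippocampus at PWK 14, where it was 2502, 2704, 2467 and 2791 in KI and 3599, 3190, 3885 and 3773 in WT, 0.724 of WT (-0.46, SE 0.0744, 95% interval -0.63 to -0.30, adjusted p = 0.00428). The genotypes did not overlap and the call held for every library left out. At PWK 28 *Scn1a* was 3393, 3339, 3578 and 3835 against 3684, 3956, 3548 and 3950, which overlapped (-0.10, adjusted p = 0.274). In cortex it was 4223, 4502, 4706 and 5296 against 5316, 5325, 5378 and 4945 at PWK 14 (-0.17, adjusted p = 0.200), where only the fourth libraries crossed, and -0.15 at PWK 28 (adjusted p = 0.208).

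*Scn3a* in hippocampus at PWK 14 was 1417, 1883, 1422 and 1510 in KI and 2067, 1859, 1867 and 2070 in WT (-0.34, SE 0.0959, adjusted p = 0.0393), a call that held for 1 of 8 libraries left out in turn, with differences of -0.44 to -0.30. Its other adult differences, -0.24 and -0.19 in cortex and -0.19 in hippocampus at PWK 28, were not called. *Scn2a* and *Scn8a*, the channels of the excitatory initial segment, were not called in any genotype comparison. The cortical log2 differences of *Scn2a* were -0.15 at PWK 14 and 0.03 at PWK 28, and the hippocampal ones -0.14 and 0.03, with an interval of -0.29 to 0.01 in hippocampus at PWK 14. For *Scn8a* they ran from -0.11 to -0.04, with an interval of -0.26 to 0.04 there. In hippocampus at PWK 14, *Scn8a* was 12997, 13679, 13264 and 12330 in KI and 14088, 13066, 13926 and 15482 in WT, which overlapped.

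**Figure D4:**
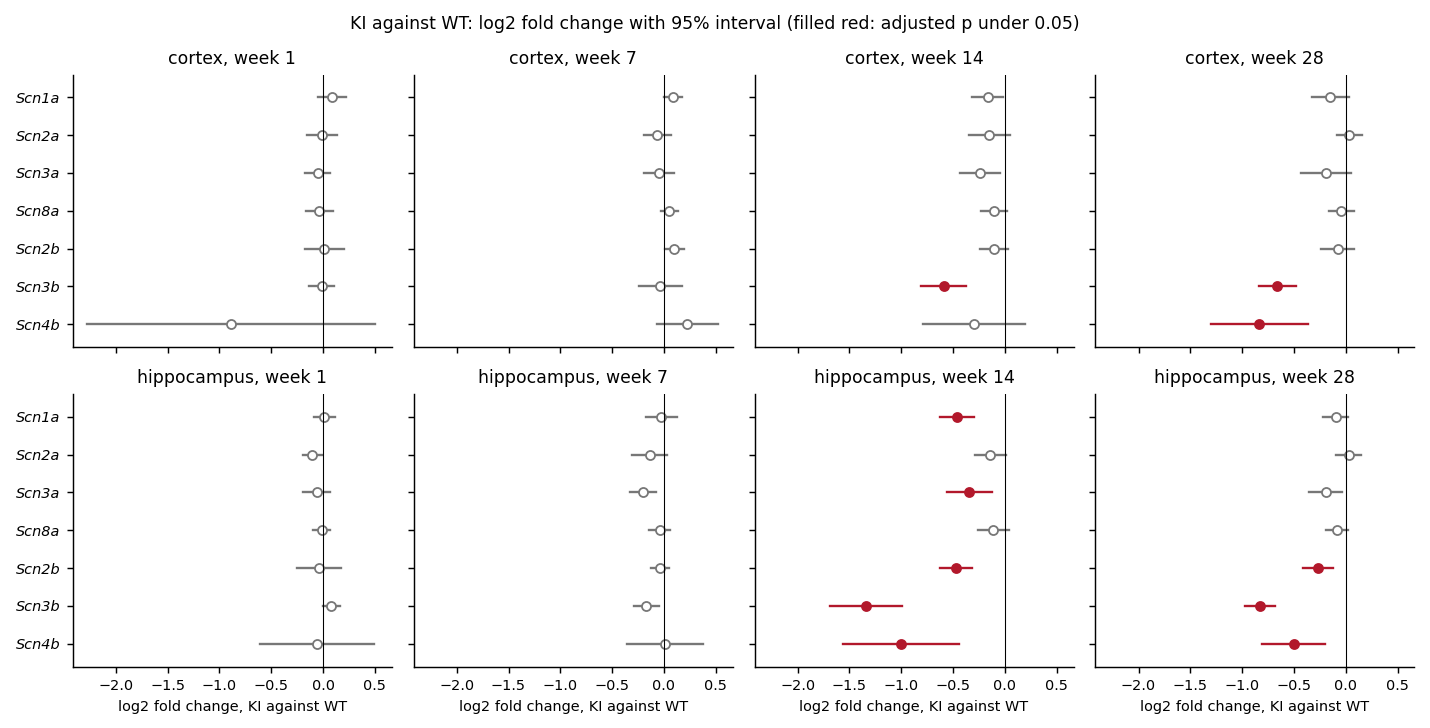
Log2 fold change of KI against WT (points) with its 95% interval (bars) for the 7 genes in cortex (top) and hippocampus (bottom) at 4 ages; filled red points had an adjusted p under 0.05. No point was filled at PWK 1 or 7, and all filled points at PWK 14 and 28 lay below 0, Scn3b being filled in all 4 adult panels.

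Several marker lists moved with these comparisons, and their part in the differences was not tested. The markers of parvalbumin-type interneurons, which depend on *Scn1a*, were *Pvalb*, *Tac1*, *Kcnc1*, *Kcnc2* and *Syt2*. Their sum was 7302 to 9007 in KI and 10146 to 10594 in WT hippocampus at PWK 14, with 2 of 5 called, lower (7.95% of all genes). It was 8036 to 9256 against 9293 to 10337 at PWK 28, with 1 of 5 called, lower (6.91%). In cortex at PWK 28 that sum went the other way, at 13394 to 14097 in KI and 12029 to 12771 in WT, with 3 of 5 called, higher (12.2%). Of 6 markers of all GABAergic interneurons, 4 were called higher in KI and 1, *Vip*, lower in cortex at each adult age. Of all genes, 2.48% were called higher and 2.7% lower there at PWK 14, and 12.2% and 10% at PWK 28. The cortical sums were 23515 to 31584 against 18688 to 20385 at PWK 14 and 30088 to 45055 against 21703 to 27856 at PWK 28. In hippocampus 1 was called at PWK 14, higher (7.64% of all genes), with sums of 20866 to 24750 against 18355 to 21031, which overlapped. At PWK 28, 3 were called there, higher (8.92%), with sums of 21820 to 24956 against 17556 to 19455. Layer 5 markers were 3897 to 5379 against 5820 to 7573 in cortex at PWK 28, all 3 called, lower (10% of all genes). Of the 5 general neuronal markers none was called in cortex at PWK 14 or 28 (5.18% and 22.2% of all genes called). In hippocampus 1 of them was called at each age, lower (7.95% and 6.91% of all genes). No marker of these lists was at 0 in any group.

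The genotype effect was compared between the regions directly. At PWK 14 it was lower in hippocampus than in cortex for *Scn2b*, by -0.37 on the log2 scale (SE 0.0938, 95% interval -0.57 to -0.17, adjusted p = 0.0451), the only 1 of 7 members called, where 2.85% of all genes were. *Scn3b* missed the threshold with a larger difference (-0.75, 95% interval -1.16 to -0.33, adjusted p = 0.0530) and passed it in 5 of the other settings, among them scaling to equal totals (adjusted p = 0.0312). At PWK 28 0 of 7 were called and none had an unadjusted p under 0.05 (4.57% of all genes called), with -0.19 for *Scn2b* (adjusted p = 0.343) and -0.17 for *Scn3b* (adjusted p = 0.451). The effect at PWK 28 was also compared with that at PWK 14, and 0 of 7 members and 0% of all genes passed in either region, although an unadjusted limma p under 0.05 was reached by 2770 genes in cortex and 2274 in hippocampus. In hippocampus the values for that change were 0.51 for *Scn3b* (95% interval 0.12 to 0.89, adjusted p = 0.269) and 0.36 for *Scn1a* (adjusted p = 0.163), the only members with an unadjusted p under 0.05, and both were called in the fit of all 64 libraries (adjusted p = 0.0398 and 0.0240). The call for *Scn2b* held for 4 of the 16 libraries left out in turn, and 0 to 2 members were called in all.

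Another 5 genes of the channel family were examined: *Scn9a*, *Scn10a* and *Scn11a*, alpha subunits of peripheral neurons, *Scn7a*, whose product responds to sodium level rather than voltage, and *Nalcn*, the sodium leak channel. None was called between the genotypes at PWK 1 or 7. In KI cortex 1 was called higher at PWK 14 (2.48% of all genes) and 2 at PWK 28 (12.2%). In hippocampus 2 were called higher at PWK 14 (7.64%) and 2 at PWK 28 (8.92%), and 1 lower at each age. The higher calls were all of *Scn7a* and *Scn11a*, and the lower ones of *Scn9a*.

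*Scn7a* was higher in KI in all 4 adult comparisons. In cortex it was 296 to 550 in KI against 200 to 269 in WT at PWK 14 (0.76, adjusted p = 0.0303) and 522 to 1834 against 158 to 253 at PWK 28 (2.45, SE 0.329, adjusted p = 0.00082). In hippocampus it was 183 to 270 against 90 to 152 at PWK 14 (0.82, adjusted p = 0.0196) and 259 to 397 against 129 to 189 at PWK 28 (1.05, adjusted p = 0.00132). The genotypes did not overlap in any of them.

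*Scn9a* was lower in KI hippocampus, at 70.2 against 147 at PWK 14 (-1.07, adjusted p = 0.00906) and 88.3 against 133 at PWK 28 (-0.58, adjusted p = 0.0285). How far the sequence shared with the more abundant *Scn3a* enters these low values was not tested. *Scn11a* was called higher in cortex at PWK 28 and in hippocampus at both ages, but its WT means were only 1.75 to 2.89 normalized counts and its KI means 24.6 to 29.6.

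**Figure D5:**
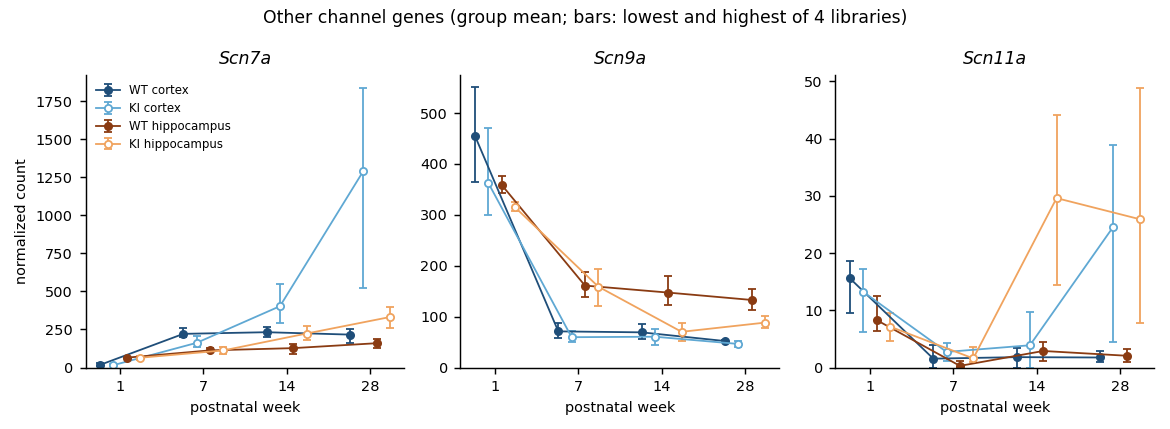
Normalized counts (vertical axes from 0) of Scn7a, Scn9a and Scn11a against postnatal week; points are group means, filled for WT and open for KI, and bars run from the lowest to the highest of 4 libraries. Scn7a in KI cortex at PWK 28 spanned 522 to 1834 against 158 to 253 in WT, and Scn11a stayed under 50 in every library.

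A list of 10 genes was taken as partners of these channels: *Ank3* and *Sptbn4*, the scaffold of the axon initial segment, the adhesion genes *Nfasc*, *Nrcam* and *Cntn1*, the intracellular fibroblast growth factor homologues *Fgf11*, *Fgf12*, *Fgf13* and *Fgf14*, which bind the tail of the alpha subunit, and the ubiquitin ligase gene *Nedd4l*. None was called at PWK 1 or 7. In cortex 1 was lower in KI at PWK 14 (2.7% of all genes), and 1 was lower (10%) and 2 higher (12.2%) at PWK 28. In hippocampus 1 was lower (7.95%) and 1 higher (7.64%) at PWK 14, and 4 were higher (8.92%) at PWK 28. *Ank3*, *Fgf14* and *Nedd4l* were in none of these calls.

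*Fgf13* was the partner lower in KI cortex, at 2326 ± 191 against 3659 ± 72 at PWK 14 (-0.66, SE 0.0629, adjusted p = 0.000683) and 1818 ± 308 against 3085 ± 114 at PWK 28 (-0.78, adjusted p = 0.000713). In hippocampus it was 4804 ± 427 against 5219 ± 493 and 4433 ± 138 against 4273 ± 205 (SD, n = 4), not called, and its genotype effect differed between the regions at both ages (0.54 and 0.83, adjusted p = 0.0151 and 0.000736). *Sptbn4* was lower in KI hippocampus at PWK 14, at 5749 ± 504 against 8360 ± 558 (-0.54, adjusted p = 0.00276). *Nfasc* was higher there (0.40, adjusted p = 0.00904) and again at PWK 28 (0.19, adjusted p = 0.0193). *Fgf12* was higher at PWK 28 in cortex (0.30, adjusted p = 0.0190) and hippocampus (0.27, adjusted p = 0.0064), *Fgf11* in cortex (0.64, adjusted p = 0.0158), and *Cntn1* and *Nrcam* in hippocampus (0.17 and 0.16, adjusted p = 0.0273 and 0.0361).

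Over the 16 group means, which share libraries and age steps, the genes whose log2 levels ran most like each member were found among 12333 protein-coding genes by Pearson's r, as a description. For *Scn3b* these were *Grm5* (0.967), *Mdga1* (0.962) and *Gabra5* (0.960), for *Scn1a* they were *Rora* (0.985), *Cfap74* (0.983) and *Syt1* (0.979), and for *Scn4b* they were *Kif5a* (0.986), *Coro6* (0.984) and *Zdhhc17* (0.982). *Scn2b* ran with *Tppp* (0.997), *Fads6* (0.995) and *Kcnc1* (0.993), *Scn8a* with *Acsf3* (0.983), *Kalrn* (0.981) and *Dennd5a* (0.977), *Scn2a* with *Slf1* (0.974), *Negr1* (0.973) and *Flrt2* (0.962), and *Scn3a* with *Ywhaq* (0.989), *Isoc1* (0.987) and *Mturn* (0.983). Among the members, r was highest between *Scn1a* and *Scn4b* (0.959) and between *Scn8a* and *Scn2b* (0.958), and lowest between *Scn3a* and *Scn2b* (-0.919).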

How the data were processed

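RNA-seq libraries of 64 samples (16 groups of 4 libraries) were grouped by the sample labels. Per the labels, the authors' processing notes name Salmon 0.11.2, R 3.6.0 and DESeq2 1.19.11 on GRCm38; the study's methods describe a total RNA kit and the labels an mRNA kit. The deposited table gives DESeq2-normalized signal, estimated counts scaled by the authors over all libraries, so that depth before scaling was not recovered and precision rests on the spread between mice. Here limma 3.58.1 (limma-trend, R 4.3.3, two-sided) was run on log2(value + 1) over genes with a mean of at least 1 in the libraries compared, with the Benjamini-Hochberg method, as tested on simulated data. All 7 members passed this filter in every comparison. Of the table's IDs, 18420 matched the GENCODE annotation. Levels per kilobase used the median coding transcript as first planned, with the union of exons and, added after seeing the data, the longest coding transcript, which the report prints. The genes named were the 7 members, the 2 lists of other channel genes (where measured) and of partners (where called), *Cyfip2*, markers and, for each member, the 3 genes most like it. The members and lists were chosen with earlier results of these data known. Sums of markers are over normalized counts. Some listed genes and 1 set of sequences are not reported here. Alternatives were another pseudocount, other filters, total-sum scaling, correction for GC content and length, a fit of all libraries, a replicate block and leaving out single libraries.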

Additional observations from a re-analysis of the deposited data

Results flagged for a closer look

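In 7 of the 112 groups of 4 libraries that were examined gene by gene, 1 library stood apart from the other 3 by Dixon's criterion, which chance meets in about 1 in 20 groups. For *Scn4b* these were WT cortex PWK 1 replicate 1 at 935 (the others 64 to 126), KI cortex PWK 14 replicate 2 at 5598 (2302 to 2816) and KI hippocampus PWK 14 replicate 4 at 664 (288 to 320). The first 2 had the highest striatal marker sums of their groups, 7794 and 14198, and the third a sum of 3938 beside 1880 to 4920 in the other 3. For the other members they were *Scn1a* in WT cortex PWK 14 replicate 4 at 4945 (5316 to 5378), *Scn2a* in KI cortex PWK 1 replicate 4 at 19224 (16192 to 16420), *Scn3a* in KI hippocampus PWK 7 replicate 2 at 1741 (2001 to 2048) and *Scn3b* in KI hippocampus PWK 28 replicate 3 at 5746 (4816 to 4930). The genotype effect on *Scn2b* at PWK 14 was lower in hippocampus than in cortex by the test of the difference itself, by -0.37 on the log2 scale (limma, adjusted p = 0.0451).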

How the results depend on the processing

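Of 334 recomputed counts of members called, 290 stayed within 1.5 times the reported count, and 4 called or once-called member values changed sign. With correction for GC content and length *Scn2a* in WT hippocampus at PWK 7 against PWK 1 was 0.0087 (reported -0.10), and *Scn8a* in hippocampus against cortex at PWK 1 (reported 0.017) was -0.0538 with that correction, with or without the replicate block, and ran from -0.0066 to 0.0491 with single libraries left out, below 0 without WT cortex PWK 1 replicate 2; the cause was not tested. In the fit of all 64 libraries the count was 1 in KI cortex at PWK 28 (reported 2), 1 in WT cortex at PWK 28 against PWK 7 (*Scn8a*; reported 3, and with total-sum scaling also 1, *Scn3b*, in the opposite direction) and 2 for the change of the genotype effect with age in hippocampus (reported 0). For the genotype effect between regions at PWK 14 (reported 1) it was 3 in that fit and 2 with a mean of at least 30, with total-sum scaling, with the GC and length correction, and with that correction and the replicate block. Leaving out single libraries gave 1 to 2 calls in KI cortex at PWK 14 and at PWK 28, 3 to 4 in KI hippocampus at PWK 14 (reported 5), 1 to 3 at PWK 28, 0 to 4 and 0 to 3 for WT cortex and hippocampus at PWK 28 against PWK 7, and 0 to 2 for the genotype effect between regions at PWK 14. The level of *Scn8a* against *Scn2a* per kilobase moved from 3.60 to 0.817 with the union of exons and 0.790 with the longest coding transcript.

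Libraries with the same replicate number were not shown to be paired, nor shown to come from different mice. Deviations from the group mean over 12819 genes had a mean correlation of 0.140 between cortex and hippocampus of one number (17 of 32 over 0.1). Between unlike numbers it was -0.0461. Among the WT libraries alone, which the region tests used, it was 0.0653 for one number (5 of 16 over 0.1) and -0.0217 for unlike numbers. Between KI and WT of one region the mean correlation was 0.0260 for one number (10 of 32) and -0.00905 for unlike numbers. The region tests as reported treated the libraries as independent. With the replicate block KI hippocampus at PWK 14 had 4 calls, losing *Scn3a*, and WT hippocampus against cortex at PWK 1 had 5, gaining *Scn4b*; the counts in the other genotype comparisons did not change. Values near 0, such as *Scn11a* in WT, are limited by depth.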
